A study of Mus musculus with 6 samples.

Results

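The nuclear genes for the subunits of oxidative phosphorylation were described in mouse bone marrow derived macrophages, by their level in each respiratory complex and by the comparison of RIP1i with DMSO. The genes were chosen by symbol (Nduf, Sdha to Sdhd, Uqcr, the Cox subunit names and Atp5, leaving out names marked as pseudogenes) and by a minimum of 10 counts in each of the 6 libraries. Of 52459 genes in the count table, 85 matched by symbol and 80 passed the minimum. By complex they were 36 genes for complex I, 4 for complex II, 8 for complex III, 15 for complex IV and 17 for complex V. The symbols also take in 3 genes whose proteins are known for assembly rather than as subunits. These are Cox7a2l, Atp5s and Atp5sl. Cox7a2l is known as a factor that joins complexes III and IV into supercomplexes. Whether its protein does so in these C57BL/6 cells was not tested. Atp5s is a coupling factor of the ATP synthase. Atp5sl, its relative, is also named Dmac2 and known for complex I assembly. Atp5sl was counted with complex V by its symbol alone. Cyc1, the cytochrome c1 of complex III, has a symbol outside the rule and is given with the electron carriers. Ndufa4 carries a complex I name and was placed in complex IV, where its protein is known to sit.

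All cells came from C57BL/6 marrow grown in GM-CSF, a cytokine that yields macrophages and related myeloid cells, so the DMSO and RIP1i groups share strain, tissue and growth factor. At day 7 the cultures received DMSO, the solvent control, or RIP1i, and were collected after an overnight exposure, 3 libraries in each group. The labels give neither the compound behind the abbreviation RIP1i nor its dose, and the series title names RIP1 kinase, which relays death and inflammatory signals downstream of the TNF receptor. They do not say whether the 3 replicates were separate cultures or animals, so each p-value reflects library-to-library spread alone, and that spread could be technical. The comparison asks how RIP1i alters the macrophage transcriptome.

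Oxidative phosphorylation makes most ATP of resting cells. Complex I takes electrons from NADH and complex II from succinate, complex III passes them to cytochrome c, complex IV reduces oxygen, and complex V, the ATP synthase, uses the proton gradient so built. Nearly all subunits are encoded in the nucleus and imported into the mitochondrion, and a small set of hydrophobic core subunits is encoded by mitochondrial DNA. In macrophages the chain is known for its part in alternative activation and, through complexes I and II, for reactive oxygen production in inflammatory activation.

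Library totals ran from 40264902 to 44862310 counts, and the 80 genes took 0.765% to 0.809% of the counts of a library. Summed levels of 10 macrophage markers ran from 61884 to 76609 CPM (counts scaled by library size, with TMM factors), with the lowest sum in RIP1i replicate 2. Sums were 5350 to 6902 CPM for dendritic cell markers, 224 to 660 for neutrophil and precursor markers, 80.1 to 351 for stromal markers, 8.44 to 31.4 for mast cell, basophil and eosinophil markers and 1.74 to 2.92 for lymphocyte markers. Muscle and brown fat markers summed to 0.507 to 0.665 CPM, with Myh4 at 0 counts. In bulk RNA, fewer cells of a type and less RNA per cell cannot be told apart. Across all 14857 genes tested by edgeR (quasi-likelihood F test), none passed a Benjamini-Hochberg adjusted p of 0.05 (smallest adjusted p = 0.777). DESeq2 called 2 genes and limma-voom called 0.

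Transcripts of the respiratory chain were abundant. The median subunit gene stood above 92.8% of tested genes by its mean FPKM (the authors' depth- and length-scaled value, here averaged over the 6 libraries), and 44 of the 80 genes lay in the top 10%. By complex, the median gene stood at 84.7 FPKM for complex III, 72.1 for complex IV, 53.3 for complex II, 49.8 for complex V and 29.0 for complex I. This order was the same in each of the 6 libraries. The place of complex IV depended on the genes counted. It takes in 3 alternative isoforms, Cox6a2, Cox6b2 and Cox7a1, with a median of 2.82 FPKM. Its 11 ubiquitous isoforms alone had a median of 100.3 FPKM, above that of complex III. Complexes II and V were the closest neighbours, with medians of 53.5 ± 1.08 and 48.997 ± 1.00 FPKM in DMSO and 53.1 ± 0.33 and 49.9 ± 1.53 FPKM in RIP1i (SD, n = 3 libraries each). Their library values did not overlap.

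**Figure D1:**
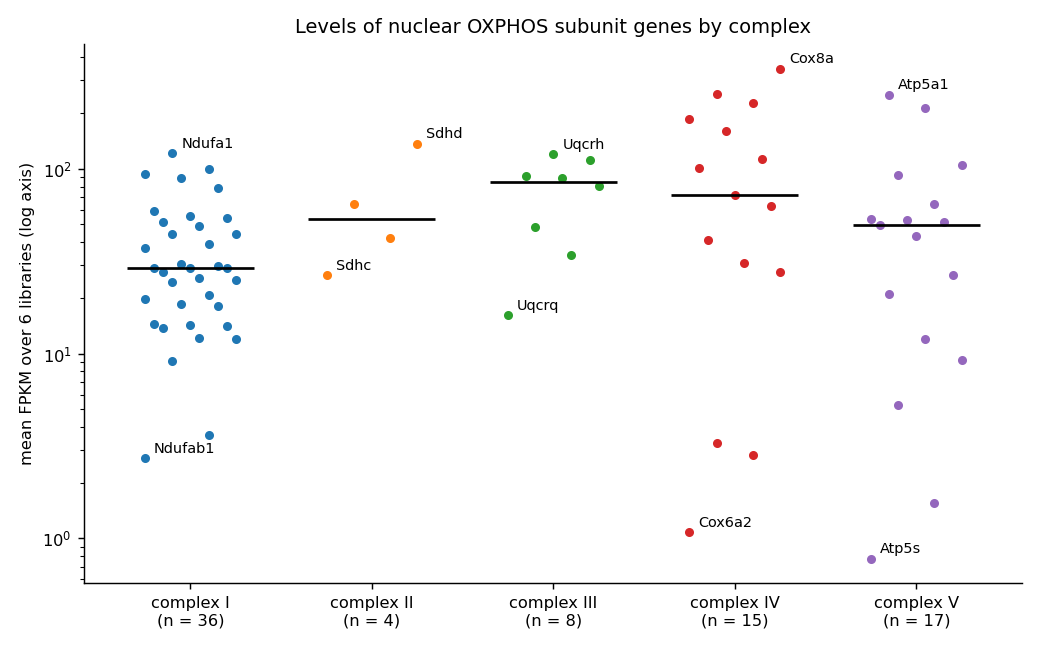
Mean FPKM of each of the 80 subunit genes over 6 libraries on a log axis, by complex, where each point is a gene and each black line the median of the complex. Complex I has the lowest median (29.0 FPKM), and the levels run from Atp5s at 0.775 to Cox8a at 348 FPKM.

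The length that the counts and the deposited FPKM imply was within 1% of the merged exon length in GENCODE M21 for 65 of the 80 genes. For a gene with further long exons this length exceeds that of its usual transcript, and the implied length was more than 2 times the principal transcript for 31 genes and more than 5 times for 5 genes. These 5 were Ndufb2, Atp5l, Atp5g1, Ndufb7 and Cox6c. Atp5l, subunit g of the ATP synthase membrane part, had an implied length of 6445 bases against 544 bases for its principal transcript, so its 1.56 FPKM became 18.5 CPM per kilobase of that transcript. Cox6c, a small complex IV subunit, moved from rank 45 at 30.8 FPKM to rank 8 at 219 CPM per kilobase.

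Over the principal transcripts the median levels were 144 CPM per kilobase for complex IV, 111 for complex V, 108 for complex III, 87.4 for complex II and 45.6 for complex I, again in the same order in each of the 6 libraries. Complex I was therefore the lowest on both scales. The order of the other complexes depended on the length used and, for complex IV by FPKM, on the genes counted. The ranks of the 80 genes on the 2 scales had a Spearman correlation of 0.82 across genes, which share their counts. This second scale was added after the data had been seen.

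**Figure D2:**
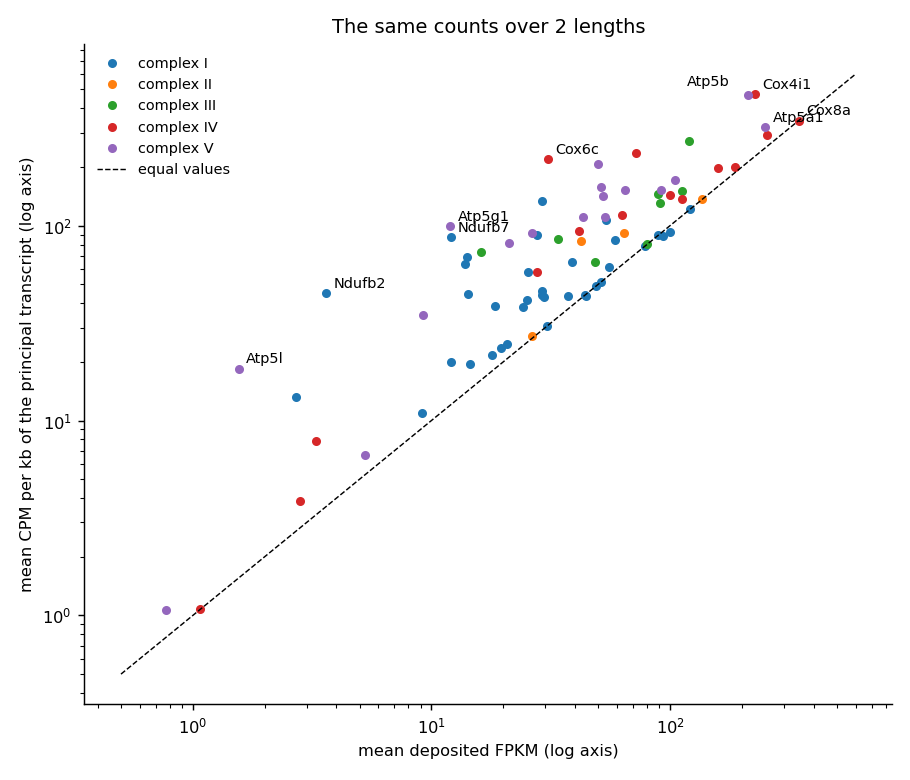
Mean CPM per kilobase of the principal transcript against the mean deposited FPKM for the 80 subunit genes, both on log axes, colored by complex, with a dashed line at equal values. Named points are the 5 genes whose implied length is more than 5 times their principal transcript and the 4 highest genes on the vertical axis, and Atp5l lies farthest left among the former at 1.56 FPKM.

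In complex I, the 7 core subunits together hold the flavin and the iron-sulfur clusters of the electron path. Their median was 29.1 FPKM, beside 29.0 for the 29 accessory subunits, which surround that core. Among core genes, Ndufs1, the largest iron-sulfur subunit, stood at 14.2 ± 0.19 FPKM and the iron-sulfur subunit Ndufs8 at 44.5 ± 1.93 FPKM (SD, n = 6). Accessory genes spanned a wider range. Ndufa1 stood at 114, 118 and 118 FPKM in DMSO replicates 1 to 3 and at 127, 122 and 125 FPKM in RIP1i replicates 1 to 3, the highest of the complex. Ndufb9 followed at 100.02 ± 3.92 FPKM. Ndufab1, the mitochondrial acyl carrier protein, was the lowest at 2.72 ± 0.14 FPKM and stood at 13.2 CPM per kilobase of its principal transcript, above Ndufb4 at 10.98.

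The 4 genes of complex II, which is also succinate dehydrogenase of the TCA cycle, stood at distinct levels. Sdhd, a membrane anchor, stood at 132, 129 and 139 FPKM in DMSO and at 137, 145 and 137 FPKM in RIP1i. Sdha, the flavoprotein that oxidises succinate, stood at 63.9, 65.7 and 64.6 FPKM in DMSO and at 63.9, 62.3 and 65.9 FPKM in RIP1i. Sdhb, the iron-sulfur subunit, averaged 42.3 ± 1.04 FPKM and Sdhc, the other anchor, 26.5 ± 1.03 FPKM (SD, n = 6). None of these 4 ranges overlapped another. On the scale of the principal transcript the order was the same, at 137, 91.8, 83.0 and 27.2 CPM per kilobase.

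In complex III, Uqcrh, the hinge protein that contacts cytochrome c1, was the highest by FPKM at 120 ± 2.95, followed by the small subunit Uqcr10 at 112 ± 2.98. Uqcrfs1, the catalytic Rieske iron-sulfur protein, stood at 80.4 ± 3.67 FPKM, and the core proteins Uqcrc2 and Uqcrc1 at 48.4 ± 2.53 and 33.9 ± 0.62 FPKM. The small subunit Uqcrq was the lowest at 16.2 ± 0.82 FPKM, and at 73.3 CPM per kilobase it lay above Uqcrc2 at 65.2. Cyc1 stood at 63.7, 71.0 and 67.0 CPM in DMSO and 68.3, 69.0 and 70.3 CPM in RIP1i.

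Complex V was led by the catalytic head. Atp5a1, the alpha subunit, stood at 240, 257 and 250 FPKM in DMSO and at 255, 250 and 254 FPKM in RIP1i. Atp5b, the beta subunit that carries the catalytic sites, stood at 212 ± 5.66 FPKM (SD, n = 6). The 5 genes of the head and central rotor had a median of 104 FPKM, the 4 of the peripheral stalk 47.9 and the 3 of the membrane subunits 26.5. Atp5s, the coupling factor, was the lowest of all 80 genes at 0.775 ± 0.12 FPKM. With the complex IV isoforms Cox6a2, Cox6b2 and Cox7a1 it made up the 4 subunit genes under 10 CPM by their mean over the 6 libraries.

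The ring of c subunits, through which protons pass, is encoded by 3 genes whose mature proteins are the same and whose import sequences differ. Atp5g3 gave 70.8% ± 1.54 of their summed FPKM, Atp5g1 16.5% ± 0.91 and Atp5g2 12.6% ± 0.76 (SD, n = 6). Over the principal transcripts the shares were 54.0%, 34.0% and 11.98%, so Atp5g3 was the leading gene on both scales. In DMSO and RIP1i the Atp5g3 share of FPKM was 70.3% ± 1.04 and 71.3% ± 2.03 (SD, n = 3 each), a difference smaller than the spread between replicates. All 50-base windows of the Atp5g2 transcript and 66.0% of those of Atp5g1 also occurred in other annotated genes, and 0% of those of Atp5g3 did. How reads matching several places were counted is not given in the sources used here, and the part of shared sequence in these shares was not tested.

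Complex IV holds families in which a widely used isoform has a relative restricted to muscle, lung or testis. The widely used isoform led in each. Cox8a, the ubiquitous subunit 8, stood at 325, 349 and 350 FPKM in DMSO and at 354, 363 and 346 FPKM in RIP1i, and the muscle form Cox8b and testis form Cox8c had 0 counts in every library. Cox6b1 stood at 255 ± 4.49 FPKM and made up 98.7% ± 0.18 of subunit 6b, with the testis form Cox6b2 at 3.30 ± 0.44 FPKM. Cox4i1 stood at 226 ± 7.59 FPKM, and its lung and hypoxia relative Cox4i2 had 6, 12 and 10 counts in DMSO and 13, 3 and 10 in RIP1i. Cox7a2 made up 97.3% ± 0.21 of the subunit 7a genes Cox7a1 and Cox7a2, with the muscle form Cox7a1 at 2.82 ± 0.22 FPKM and Cox7a2 at 100.3 ± 2.09 FPKM. Cox7a2l, of the same family, stood at 186 ± 6.41 FPKM. Cox7b stood at 112 ± 3.20 FPKM, and its testis relative Cox7b2 had 1 count in DMSO replicate 1 and 0 in the other 5 libraries. Ndufa4 stood at 41.4 ± 1.76 FPKM, and its hypoxia-induced relative Ndufa4l2 had 24, 38 and 9 counts in DMSO and 19, 5 and 14 in RIP1i.

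The muscle form of subunit 6a differed between libraries more than any other member. Cox6a2 had 23, 24 and 28 counts in DMSO and 18, 81 and 12 counts in RIP1i, so the RIP1i range enclosed the DMSO range and a single library, RIP1i replicate 2, stood apart. Its coefficient of variation over the 6 libraries was 81.4%, beside a median of 3.57% for the 80 genes. The muscle and brown fat markers summed to 0.665 CPM in RIP1i replicate 2 and to at most 0.622 CPM elsewhere. These sums lie near the floor, with 0 of the 8 markers passing the filter of the fit, so they do not set that library apart. Cox6a1, the ubiquitous form, stood at 160 ± 3.87 FPKM and made up 99.3% ± 0.52 of subunit 6a. The fitted log2 fold change of Cox6a2 was 0.62 ± 0.65 (SE), with a 95% interval from -0.89 to 2.13.

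Read sharing with other genes could touch a part of these levels. Of the 80 genes, 33 had no 50-base window of their principal transcript in another annotated gene, and 15 had more than 30% of their windows there. For 34 genes the matches included an annotated pseudogene. The highest were Atp5g2 at 100%, Atp5l at 84.8%, with matches in 12 annotated pseudogenes, Atp5g1 at 66.0% and Cox7c at 53.0%. Among the 76 genes of at least 10 CPM, the median level was 49.2 CPM per kilobase for the 15 genes above 30% and 84.0 for the 30 genes at 0%. Across those 76 genes the Spearman correlation of shared windows with level was -0.07. Exons of 26 genes overlapped an exon on the other strand, such as Atp5j with Gabpa, Ndufb6 with Smim27, Uqcrc2 with Pdzd9 and Cox4i1 with Emc8. Exons of 5 genes overlapped another gene record on their own strand, which for Atp5o was a second record of the same symbol. Whether the counting used strand is not given in the sources used here, so reads of such partners cannot be told apart.

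The promoters of nuclear subunit genes are known for sites of NRF1, of ETS factors such as GABP, and of YY1. RefSeq windows of the build GRCm38.p6, from 250 bases before to 50 bases after a gene's start, matched 68 of the 80 genes. The 12 genes with no window included Atp5a1, Cox4i1, Cox6a2, Cox6c, Ndufa2, Ndufb9, Ndufs1, Sdhc, Uqcrb, Uqcrc2 and Uqcrq. Where RefSeq lists several starts the first was used, both strands were searched, and positions count from 0 at the first transcribed base. The YY1 letters AAGATGGCG stood in 7 of the 68 windows (10.3%), beside 3.24% of the windows of 10237 tested genes. The NRF1 letters GCGCATGCG stood in 8 windows (11.8%) beside 3.75%, the ETS letters CCGGAAG in 15 (22.1%) beside 18.3%, and the letters TATAAA in 5 (7.35%) beside 7.08%. The NRF1 letters are nearly their own reverse complement, so matches on both strands overlap and were counted as 1 window.

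All 7 YY1 matches began 22 to 35 bases after the start, on the gene's strand, and in all 7 the ATG inside the letters was an annotated start codon in GENCODE M21. Among tested genes with the letters on the gene's strand, 122 of 244 had them over an annotated start codon. The 7 sites are shown so that this shared position can be read, with the searched letters in capitals.
Ndufa9 (chr6:126849098-126849127, minus strand): gcattgtgggagAAGATGGCGgccgccgtc
Ndufc1 (chr3:51408916-51408945, minus strand): agcctgcggaacAAGATGGCGccgtccgta
Ndufs4 (chr13:114388045-114388071, minus strand): tttgcctacaggAAGATGGCGgcggtc
Ndufs6 (chr13:73328433-73328461, minus strand): agggtcaccggcAAGATGGCGgcggtgct
Ndufs7 (chr10:80249461-80249490, plus strand): aaggccgaggccAAGATGGCGgcgctggcg
Atp5j2 (chr5:145191501-145191530, minus strand): caccaggacttcAAGATGGCGtcactcggt
Atp5sl (chr7:25619428-25619457, plus strand): acgttacctggcAAGATGGCGgcgcccaga
Of these genes, 5 encode subunits of complex I and 1, Atp5j2, a subunit of complex V, while Atp5sl is the assembly gene. Their mean levels lay between 5.27 and 29.7 FPKM, with a median of 25.5 beside 44.2 for the 61 genes without the letters. Per kilobase of the principal transcript the medians were 43.3 and 85.0 CPM. The 36 genes of complex I, to which 5 of the 7 belong, had medians of 29.0 FPKM and 45.6 CPM per kilobase. The part of the complex in these level differences was not tested.

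The NRF1 matches began anywhere from base -241 to base 30. They are shown for 5 genes in which they began within the 110 bases before the start, each as the stretch from base -110 to base 9, with NRF1 and ETS letters in capitals.
Ndufa8 (chr2:36049329-36049448, minus strand): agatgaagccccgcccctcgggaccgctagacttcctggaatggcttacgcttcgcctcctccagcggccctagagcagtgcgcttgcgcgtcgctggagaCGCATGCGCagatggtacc
Ndufa11 (chr17:56717652-56717771, plus strand): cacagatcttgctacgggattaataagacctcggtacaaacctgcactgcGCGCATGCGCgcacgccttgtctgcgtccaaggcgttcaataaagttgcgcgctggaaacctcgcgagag
Uqcr11 (chr10:80406812-80406931, minus strand): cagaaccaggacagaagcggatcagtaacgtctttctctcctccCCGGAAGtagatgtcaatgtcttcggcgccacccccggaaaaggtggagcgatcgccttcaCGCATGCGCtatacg
Atp5g2 (chr15:102671038-102671157, minus strand): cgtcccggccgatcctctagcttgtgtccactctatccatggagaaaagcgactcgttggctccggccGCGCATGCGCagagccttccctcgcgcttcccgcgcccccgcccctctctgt
Atp5k (chr5:108434390-108434509, minus strand): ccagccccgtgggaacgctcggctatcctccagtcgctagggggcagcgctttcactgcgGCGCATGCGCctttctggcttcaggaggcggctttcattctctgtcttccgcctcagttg
The 8 genes with NRF1 letters had a median of 42.7 FPKM beside 40.2 for the 60 genes without them, and their median log2 fold change between RIP1i and DMSO was 0.022 beside 0.026. The medians of genes with and without YY1 letters were 0.023 and 0.024. The 15 genes with ETS letters had a median of 64.6 FPKM beside 29.7 for the 53 genes without them, or 137 beside 64.9 CPM per kilobase, and median log2 fold changes of 0.022 and 0.025. The ETS letters stood in 4 of 32 windows of complex I, the complex of lowest median level. They stood in 2 of 3 windows of complex II, 2 of 5 of III, 3 of 12 of IV and 4 of 16 of V. The part of the complex in these level differences was not tested. A match of letters describes the sequence and is not a measured binding site.

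Between RIP1i and DMSO no subunit gene passed the adjusted threshold, as for the whole table (0 of 80, beside 0.0% of the 14857 genes tested). DESeq2 and limma-voom also called 0 of the 80. At an unadjusted p of 0.05, 3 genes passed, all fitted higher in RIP1i and all accessory subunits of complex I, beside 3.59% of tested genes that passed and were fitted higher and 2.62% that passed and were fitted lower. The number of subunit genes under that p was 0 without DMSO replicate 3 and 1 without DMSO replicate 1 or 2. It was 2 without RIP1i replicate 1 or 3, and 3 without RIP1i replicate 2. With the replicate number as a block it was 1, and with limma-trend on log2(FPKM + 1) without a filter 4. The genes counted need not be the same in each fit. For 74 of the 80 genes the 95% interval of the difference lay within 1.2-fold in either direction, beside 46.5% of tested genes. These 74 were among the 76 subunit genes of at least 10 CPM, and 76.7% of tested genes at that level had such an interval. For 78 it lay within 1.5-fold, and Cox6a2 and Atp5s were the exceptions.

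**Figure D3:**
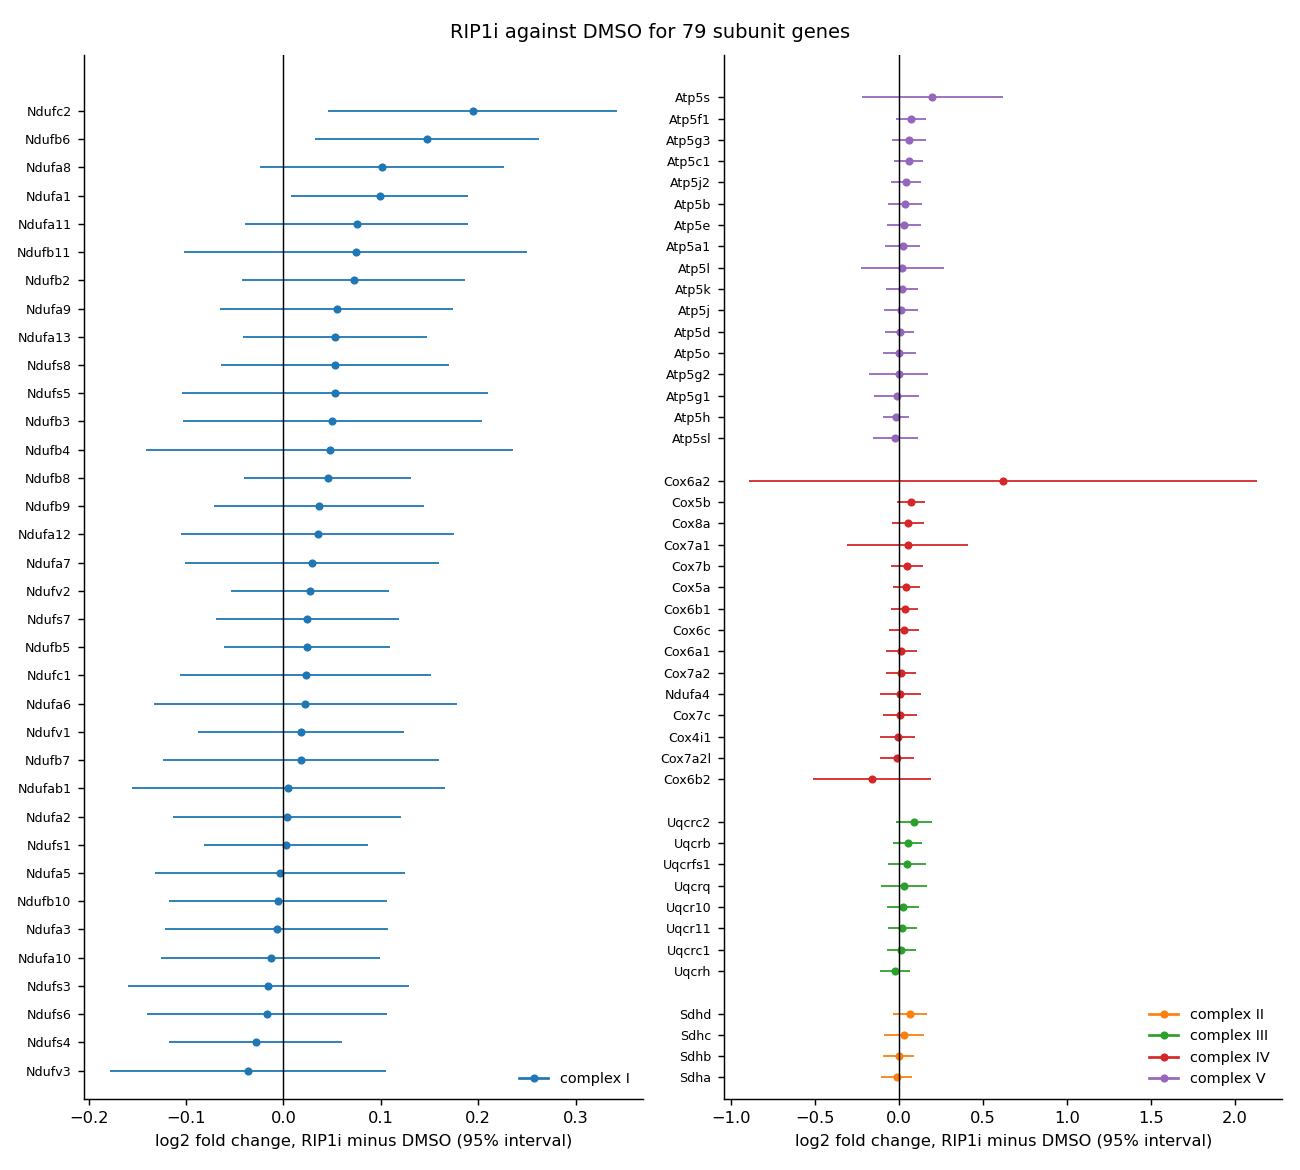
Fitted log2 fold change of 79 of the 80 subunit genes, RIP1i minus DMSO, with its 95% interval, complex I on the left and complexes II to V on the right on a wider axis. The intervals of Ndufc2, Ndufb6 and Ndufa1 lie above 0, and all others drawn cross it.

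Ndufc2, an accessory subunit of the membrane arm (chr7:97400003-97407802, plus strand, GRCm38), had the smallest p of the 80. It stood at 41.5, 37.1 and 38.3 CPM in DMSO replicates 1 to 3 and at 42.5, 43.3 and 47.9 CPM in RIP1i replicates 1 to 3, so the groups did not overlap. Its log2 fold change was 0.19 ± 0.064 (SE; edgeR, adjusted p = 0.777). Ndufb6, also of the membrane arm (chr4:40270591-40279421, minus strand), stood at 30.2, 32.2 and 29.97 CPM in DMSO and at 33.0, 33.8 and 35.5 CPM in RIP1i, again without overlap. Its log2 fold change was 0.15 ± 0.049 (SE; edgeR, adjusted p = 0.777), and 34.1% of its 50-base windows also occurred in Smim27, the gene on the other strand. Ndufa1 (chrX:37187588-37191163, minus strand), needed for assembly of the membrane arm, stood at 48.1, 49.7 and 49.3 CPM in DMSO and at 53.4, 51.1 and 53.0 CPM in RIP1i. Its log2 fold change was 0.099 ± 0.039 (SE; edgeR, adjusted p = 0.777). The lowest adjusted p over the 17 alternative fits was 0.692 for each of the 3.

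Next by p came Cox5b, Uqcrc2 and Ndufa8. Cox5b, the zinc-binding subunit 5b of complex IV, stood at 94.98, 96.7 and 94.7 CPM in DMSO and at 100.6, 102.6 and 98.6 CPM in RIP1i, a log2 fold change of 0.076 ± 0.036 (edgeR, adjusted p = 0.777). Uqcrc2, a core protein of complex III, stood at 116, 122 and 121 CPM in DMSO and at 124, 135 and 124 CPM in RIP1i, with RIP1i replicate 2 the highest. Its log2 fold change was 0.091, and 0.039 without RIP1i replicate 2 or 0.057 without DMSO replicate 1. Ndufa8, whose promoter holds the NRF1 letters shown above, stood at 39.6, 44.5 and 44.4 CPM in DMSO and at 46.1, 46.2 and 45.6 CPM in RIP1i. DMSO replicate 1 was low, and the log2 fold change was 0.037 without it and 0.10 with it.

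In 12 of the 80 genes (15%) every RIP1i library lay above every DMSO library, beside 7.36% of the genes tested and 9.84% of the 8535 tested genes of at least 10 CPM. In 0 genes did every RIP1i library lie below, beside 6.18% of the genes tested. Besides the 6 genes above, the 12 were Atp5f1, subunit b of the peripheral stalk, Atp5c1, the gamma subunit of the rotor, Uqcrb of complex III, Cox5a of complex IV, and Ndufa13 and Ndufb2 of complex I. The fitted log2 differences of these 6 ran from 0.046 for Cox5a to 0.074 for Atp5f1. Leaving out DMSO replicate 1 brought Ndufa13 from 0.053 to 0.014 and Cox5a to 0.018. Leaving out DMSO replicate 2 brought Uqcrb from 0.053 to 0.028, Atp5f1 to 0.046 and Atp5c1 from 0.059 to 0.039, and leaving out DMSO replicate 3 brought Ndufb2 from 0.072 to 0.043. Without RIP1i replicate 2 the values were 0.026 for Ndufa13 and Cox5a, 0.031 for Uqcrb and 0.030 for Atp5c1. Atp5f1 stood at 173, 169 and 180 CPM in DMSO and at 181, 181 and 187 CPM in RIP1i. Atp5c1 stood at 195, 192 and 200 CPM in DMSO and at 202, 209 and 201 CPM in RIP1i. The gap could be narrow, as in Ndufa13, at 93.2, 99.1 and 98.9 CPM in DMSO and 99.6, 103 and 99.5 CPM in RIP1i.

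**Figure D4:**
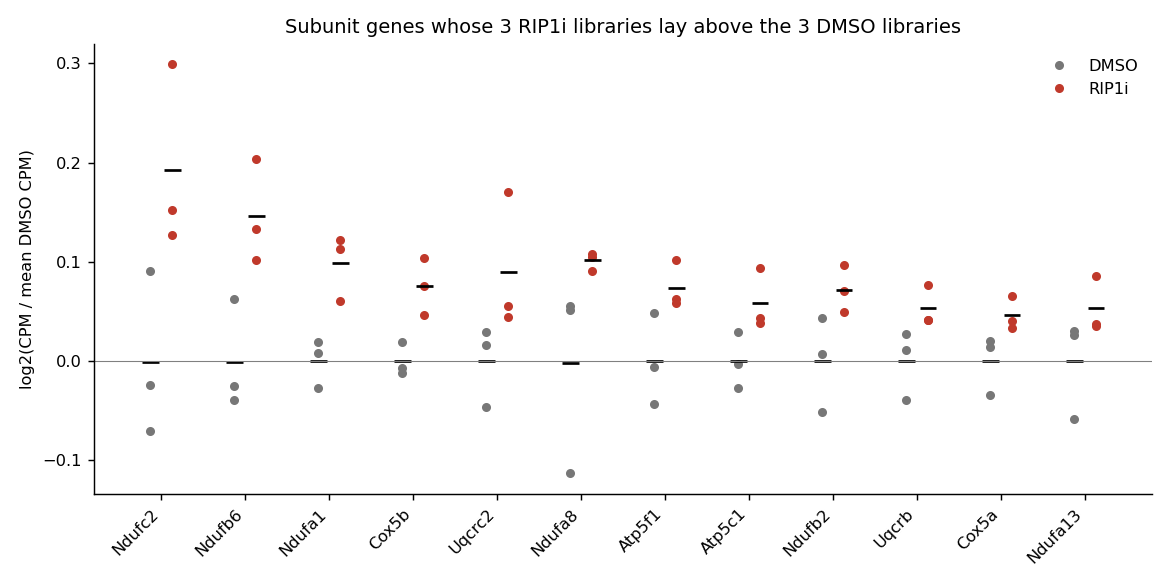
CPM of the 12 subunit genes whose 3 RIP1i libraries lay above the 3 DMSO libraries, as log2 of the ratio to the gene's DMSO mean, ordered by p, where points are libraries and black lines group means of the log2 values. The fitted difference is largest for Ndufc2 (0.19) and smallest for Cox5a (0.046).

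In sign, 63 of the 80 genes (78.8%) were fitted higher in RIP1i, beside 51.0% of all genes tested and 58.7% of those of at least 10 CPM. The median log2 fold change of the 80 was 0.024, beside 0.0025 for all genes tested and 0.016 for those of at least 10 CPM. By complex, 27 of 36 genes of complex I were fitted higher (median 0.026), 3 of 4 of complex II (0.015), 7 of 8 of complex III (0.028), 12 of 15 of complex IV (0.032) and 14 of 17 of complex V (0.022). Within complex I, 5 of 7 core genes and 22 of 29 accessory genes were fitted higher. The genes share libraries and are not independent, so these counts describe the 6 libraries and carry no test. Among the Sdh genes the fitted differences were 0.068 ± 0.043 for Sdhd, 0.029 ± 0.051 for Sdhc, 0.00039 ± 0.039 for Sdhb and -0.012 ± 0.040 for Sdha (SE).

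The count depended on 2 libraries in particular. DMSO replicate 1 was the lowest of the 6 libraries for 33 of the 80 genes, and RIP1i replicate 2 was the highest for 41. RIP1i replicate 2 also had the highest sums of dendritic cell markers (6902 CPM) and neutrophil and precursor markers (660 CPM), and the lowest of macrophage (61884 CPM) and stromal markers (80.1 CPM). DMSO replicate 3 came next in each of these sums, at 6377, 627, 68616 and 89.1 CPM. It was the highest library for 3 of the 80 subunit genes and the lowest for 9. Between the groups, 5 of 7 tested dendritic cell markers were fitted higher in RIP1i (median 0.12), as were 8 of 9 neutrophil and precursor markers (0.046) and 4 of 10 macrophage markers (-0.039). Of the stromal markers, 8 of 9 were fitted lower (-0.41), and 0 genes of these lists were called. The group ranges of each of these sums overlapped, and RIP1i replicate 3 had the lowest neutrophil and precursor sum (224 CPM) of the 6 libraries. The part of cell makeup in the subunit genes' differences was not tested. Without DMSO replicate 1, 42 of 80 genes were fitted higher and the median log2 fold change was 0.0016. Without RIP1i replicate 2, 49 of 80 were fitted higher and the median was 0.0089. With library totals in place of TMM scaling, 52 of 80 were fitted higher with a median of 0.0081, beside 44.5% of all genes and a median of -0.014.

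The summed level of the 80 genes was 7585, 7865 and 7808 CPM in DMSO replicates 1 to 3 and 7912, 7977 and 7834 CPM in RIP1i replicates 1 to 3. The means were 7752 ± 148 and 7908 ± 71.7 CPM (SD, n = 3 each), a log2 difference of 0.029. Without DMSO replicate 1 the difference was 0.013, and with library totals in place of TMM scaling it was 0.0125. RIP1i replicate 3 lay below DMSO replicate 2, so the groups overlapped. By complex the summed difference ran from 0.017 for complex II to 0.033 for complex V, and within complex II it was 0.055 for the anchors Sdhc and Sdhd and -0.00908 for Sdha and Sdhb. RIP1i replicate 3 was the lowest library for 19 genes and the highest for 13, so the RIP1i libraries differed among themselves as well.

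**Figure D5:**
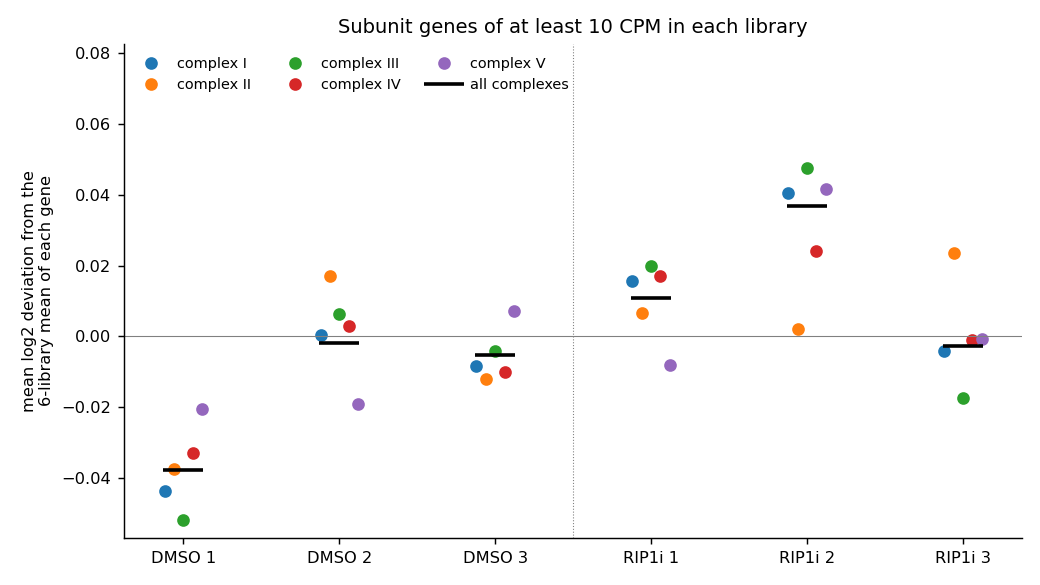
Mean log2 deviation, in each library, of the subunit genes of each complex from their own 6-library means, with black bars for all complexes together. The 76 genes drawn have a mean of at least 10 CPM over the 6 libraries. The bars run from -0.038 in DMSO replicate 1 to 0.037 in RIP1i replicate 2, and the other 4 libraries lie between -0.0052 and 0.011.

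Levels of most subunit genes varied by a few percent over the 6 libraries. The coefficient of variation had a median of 3.45% for the 76 subunit genes of at least 10 CPM, beside 5.04% for the 8535 tested genes at that level, and it was under 5% for 62 of all 80 subunit genes. The subunit genes stand higher than most of those genes, and no match for level was made. Atp5h, subunit d of the peripheral stalk, varied least at 1.09%, followed by Ndufs4 at 1.41% and the core subunit Ndufv2 at 1.49%. By complex the median ran from 2.62% in complex III to 4.09% in complex I, and it was 2.17% for the core and 4.19% for the accessory genes of complex I. These groups were not matched for level either. Across the 80 genes the SE of the log2 fold change was lower at higher CPM (Spearman correlation -0.73). Across genes of at least 10 CPM, the log2 fold change was lower at higher GC content of the transcript (Spearman correlation -0.39 over 8340 genes), and across the 76 subunit genes the correlation was -0.17. The part of GC content in the differences was not tested.

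Subunits encoded by mitochondrial DNA complete complexes I, III, IV and V. Their 13 genes summed to 6087, 4137 and 4916 CPM in DMSO and to 4908, 4161 and 5448 CPM in RIP1i. DMSO replicate 1, the lowest library for the nuclear genes, was the highest for the mitochondrial ones, and the ratio of the mitochondrial to the nuclear sum ran from 0.522 in RIP1i replicate 2 to 0.803 in DMSO replicate 1. Of 11 tested, 9 were fitted higher and 0 passed the adjusted threshold. The 3 with the smallest p were mt-Nd3, mt-Atp6 and mt-Co3, at no more than 0.869, 0.652 and 1.74 CPM in any library. These 3 genes thus add little to the sum and to its ratio, which rest on other genes of the 13. The handling of reads with several matches is not given in the sources used here. Whether the sum and the ratio hold all reads of the 13 genes was not tested. The 9 of 11 counts each gene alike whatever its level and does not describe the sum, whose group ranges overlapped.

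Genes that build and serve the chain gave 0 calls at the adjusted threshold in each list. Of 48 assembly factors, 30 were fitted higher and 18 lower, with a median of 0.028. The assembly factor with the smallest p was Coa6, a copper chaperone for complex IV, at 8.77, 8.61 and 9.15 CPM in DMSO and 9.79, 10.05 and 10.4 CPM in RIP1i (log2 fold change 0.19 ± 0.065, edgeR, adjusted p = 0.777). Tmem70, which assists assembly of the ATP synthase, and Ndufaf7, a complex I assembly factor, followed at 0.14 ± 0.064 and 0.15 ± 0.077 (SE). Of the 9 genes for cytochrome c, cytochrome c1 and coenzyme Q synthesis, 5 were fitted higher. Of 19 TCA cycle genes 13 were fitted higher, led by Suclg1 of succinyl-CoA synthetase at 0.12 ± 0.051, Dld at 0.10 ± 0.055 and Pdha1 at 0.082 ± 0.051. Of 24 import genes 17 were fitted higher, led by the chaperonin Hspe1 at 0.20 ± 0.066, Dnajc19 at 0.15 ± 0.071 and Tomm7 at 0.10 ± 0.056.

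Regulators of mitochondrial biogenesis were fitted higher in 7 of 16 genes. Pprc1, a coactivator related to PGC-1, stood at 29.8, 28.5 and 26.3 CPM in DMSO and at 24.5, 25.1 and 24.3 CPM in RIP1i, without overlap (log2 fold change -0.19 ± 0.057, edgeR, adjusted p = 0.777). Ssbp1, which binds single-stranded mitochondrial DNA, stood at 25.2, 24.2 and 24.5 CPM in DMSO and at 21.7, 22.8 and 22.7 CPM in RIP1i (-0.14 ± 0.046, edgeR, adjusted p = 0.777). Twnk, the mitochondrial DNA helicase, was at -0.13 ± 0.069. Among 10 genes of ATP export, uncoupling and outer membrane exchange, the smallest p was that of Slc25a4, the ADP/ATP carrier that exports the ATP made by complex V. It stood at 118, 118 and 121 CPM in DMSO and at 127, 138 and 134 CPM in RIP1i (0.16 ± 0.042, edgeR, adjusted p = 0.777). Ucp2, an uncoupling protein relative, and Vdac1, an outer membrane channel, were at -0.092 ± 0.048 and 0.087 ± 0.047. Of 8 genes of mitochondrial superoxide and peroxide defence, 5 were fitted higher, and the smallest p was that of the peroxiredoxin Prdx5 at -0.094 ± 0.050.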

How the data were processed

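RNA was measured by sequencing in 3 DMSO and 3 RIP1i libraries, grouped by the treatment in the labels. The authors deposited raw read counts per gene and FPKM values for the same genes. The submitters' processing notes list the build mm10 and, in no stated role, DESeq2 1.14.0, Subread 1.4.6-p3 and featureCounts, STAR 2.5.3a and CASAVA 1.8.4. The annotation, the strand setting and the handling of reads with several matches were not given in the sources used here, and the deposited FPKM hold the same reads as the counts.

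Counts were fitted over all genes in R 4.3.3 by edgeR 4.0.16 (quasi-likelihood F test, TMM scaling, filterByExpr with minimum count 10 and minimum total 15, treatment as the only term, 2-sided), and p-values were adjusted over all 14857 genes. Each log2 fold change has an SE derived from its F statistic and a 95% interval from the t distribution. Alternatives were other scalings and filters, DESeq2 1.42.0, limma-voom and limma-trend on log2 FPKM with limma 3.58.1, a replicate block, and leaving out each library. Gene models and transcripts were those of GENCODE M21, promoters those of RefSeq. Figures were drawn with matplotlib 3.10.9.

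The subunit genes and the lists were chosen with earlier results of these data known. Named genes are, in each complex, the 2 highest and the lowest by FPKM, the 6 smallest p, all without overlap between the groups, the isoform families, the Sdh genes and up to 3 genes of each other list with the smallest p. Genes named beyond these were chosen after their values had been seen. Depth was 40264902 to 44862310 counts per library. Values of 1 subunit gene are not reported here on their own.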

Additional observations from a re-analysis of the deposited data

How the results depend on the processing

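Of all genes, 0 were called in the edgeR fit, 2 with DESeq2 (smallest adjusted p = 0.045) and 4 with limma-trend on log2(FPKM + 1) without a filter, while every alternative called 0 of the subunit genes. Subunit genes fitted higher numbered 52 to 62 under the scalings, filters and tools tried, and 42 to 64 with each library left out, against 63. Their median log2 fold change ran from 0.0016 (without DMSO replicate 1) to 0.029 (without DMSO replicate 2). Median levels moved when the principal transcript replaced the length behind the FPKM, to 45.6 (complex I), 87.4 (II), 108 (III), 144 (IV) and 111 (V) CPM per kilobase, an alternative chosen after seeing the data. The summed difference ran from 0.0125 (library totals) and 0.013 (without DMSO replicate 1) to 0.039 (without DMSO replicate 2). With a replicate block, 62 of 80 genes were fitted higher, with a median of 0.025 and 0 calls. Deviations of same-numbered libraries from their group means correlated at 0.0058, -0.528 and -0.479. With 3 libraries in each group these correlations depend on one another, so they cannot settle whether the numbers pair the libraries. Across other numbers DMSO replicate 3 correlated with RIP1i replicate 2 at 0.602 and DMSO replicate 2 with RIP1i replicates 1 and 3 at 0.295 and 0.401, and no other pairing was fitted. Precision is limited by the 3 libraries in each group, and for Cox6a2, Cox6b2, Cox7a1 and Atp5s, under 10 CPM, also by depth.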
